A study of Mus musculus with 77 samples.

Results

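The YAP/TEAD pathway genes described here are 10 of the 46078 genes in a deposited table of read counts: the coactivators Yap1 and Wwtr1, their DNA-binding partners Tead1, Tead2, Tead3 and Tead4, the pathway regulators Lats2, Amotl2 and Ajuba, and the target gene Ankrd1. They were chosen by name for their place in the pathway, with earlier results of these data known. Each symbol matched 1 Ensembl identifier. All 10 passed the filter on low counts at both time points. The study asked how phosphorylation of Ngn3 (gene symbol Neurog3), the transcription factor that commits pancreatic progenitors to the endocrine fate, alters the genes that it switches on.

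Organoids were grown from pancreatic ducts of adult C57BL/6 mice and infected with a Tet-on pair of lentiviruses, 1 carrying the transgene and 1 the Tet3G transactivator, so all infected cultures shared the vector system and the induction. The 3 transgenes compared at 2 days of induction were GFP only, WT Ngn3, and 6S-A Ngn3, a form in which serines that can be phosphorylated are replaced by alanine. Both Ngn3 forms were HA-tagged and made as a fusion with GFP that a 2A peptide cleaves. At 8 days WT Ngn3 and 6S-A Ngn3 cells were compared with 2 further groups, WT no-color and 6S-A no-color cells, whose sorting gate the labels do not describe. Each library held a sorted pool of 50 cells, and pools were technical repeats within 3 biological replicates per group. The cultures were at passage 2, except replicate 3 of the 8 day groups, which was at passage 5. The age and sex of the mice, and whether replicates came from separate mice, were not given in the sources used here, so p-values measure the spread between these cultures, which may be partly technical. A lentivirus integrates at varying copy number, and expression was forced by the drug-inducible promoter, not by the promoter of the endogenous gene.

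YAP (Yap1) and TAZ (Wwtr1) carry the output of the Hippo pathway, which senses cell density, shape and tension. When the kinases LATS1 and LATS2 are active they phosphorylate YAP and TAZ, which are then held in the cytoplasm or degraded. When the kinases are quiet, YAP and TAZ enter the nucleus and bind TEAD proteins, which cannot activate transcription strongly without them. The angiomotins, among them AMOTL2, hold YAP away from the nucleus, while the LIM protein AJUBA restrains LATS kinases. Lats2, Amotl2 and Ankrd1 are themselves transcribed by YAP and TEAD, so they are also read as measures of the pathway's output. In the pancreas YAP is present in multipotent progenitors and duct cells and is switched off as cells enter the endocrine lineage.

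Of the 77 libraries 76 were retained, with 1501002 to 9202142 reads on genes each. Summed over technical repeats, a biological replicate held 17757303 to 26627347 reads at 2 days and 2397470 to 17919627 at 8 days, so the 8 day values rest on fewer reads. Neurog3 matched the labels: at most 2 reads were found in any GFP only replicate, against 133 ± 63 counts per 1000000 reads (CPM) with WT and 139 ± 52 with 6S-A Ngn3 at 2 days (SD, n = 3), at least 1099-fold and 1142-fold above a floor of 3 reads per replicate. Its level was 22.4 ± 20.9 and 12.7 ± 2.8 CPM at 8 days, and at most 0.989 CPM in a no-color replicate. Reads from the transgene and from the endogenous gene cannot be told apart. Summed ductal markers (12 genes) were high in every group and lower with Ngn3 at 2 days. They were at 18914 to 20667 CPM in GFP only, 11611 to 12164 with WT Ngn3 and 9416 to 10255 with 6S-A Ngn3. Spp1 weighed most in this sum, with 3189367 reads over all replicates, against 861630 for Krt18, 140467 for Krt19 and 94116 for Sox9. Summed proliferation genes (14 genes) were at 640.3 to 798 CPM, 261 to 404 and 180 to 299 in the same groups. Endocrine markers (10 genes, including Neurog3) summed to at most 2.39 CPM in GFP only and to at least 291 and 614 CPM with the Ngn3 forms. All 10 endocrine markers passed the test upward with both forms at 2 days, where 6.56% and 9.43% of all genes did. Downward, 7 of the 12 ductal markers passed with both forms, and 11 and 14 of the 14 proliferation genes passed. Of all genes, 5.23% and 8.62% passed downward. The part of these shifts in the results below was not tested. No marker of mesenchymal, endothelial, immune or acinar cells exceeded 18.4 CPM in a replicate, and Col3a1, Thy1, Cd3e, Cpa1, Pnlip and Ptf1a had no reads. Of these 4 lists, single genes passed the test at 2 days: Cela1 was lower with WT Ngn3 and Pecam1 higher with 6S-A Ngn3, the latter at no more than 3.84 CPM.

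Levels were compared between genes only after division by the length of their exons, as CPM per kilobase. In GFP only organoids Ankrd1 (ENSMUSG00000024803, chromosome 19, 36111961 to 36120099, minus strand) was the most abundant of the 10, at 221 ± 29 CPM per kilobase (SD, n = 3). Amotl2 at 68.0 ± 5.7 and Ajuba at 59.7 ± 9.8 followed and differed from each other by less than their spread. Wwtr1 at 18.3 ± 1.8, Tead2 at 15.3 ± 1.9 and Lats2 at 14.6 ± 1.8 came next, and Tead2 and Lats2 could not be separated. Yap1 (ENSMUSG00000053110, chromosome 9, 7931999 to 8004596, minus strand) stood at 8.32 ± 0.14 and Tead1 at 6.18 ± 1.5. Tead3 at 2.36 ± 0.45 and Tead4 at 2.24 ± 0.54 were lowest and could not be separated. TAZ transcripts were therefore more abundant per length than YAP transcripts in these cells, and Tead2 was the most abundant TEAD. Gene positions follow GENCODE M21 (GRCm38). Tead2 and Yap1 share exon sequence with an antisense gene and the strand setting of the counting was not stated, but the antisense genes Cd37 and Gm20416 held only 58 and 61 reads in all, against 26000 and 18844 for Tead2 and Yap1.

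**Figure D1:**
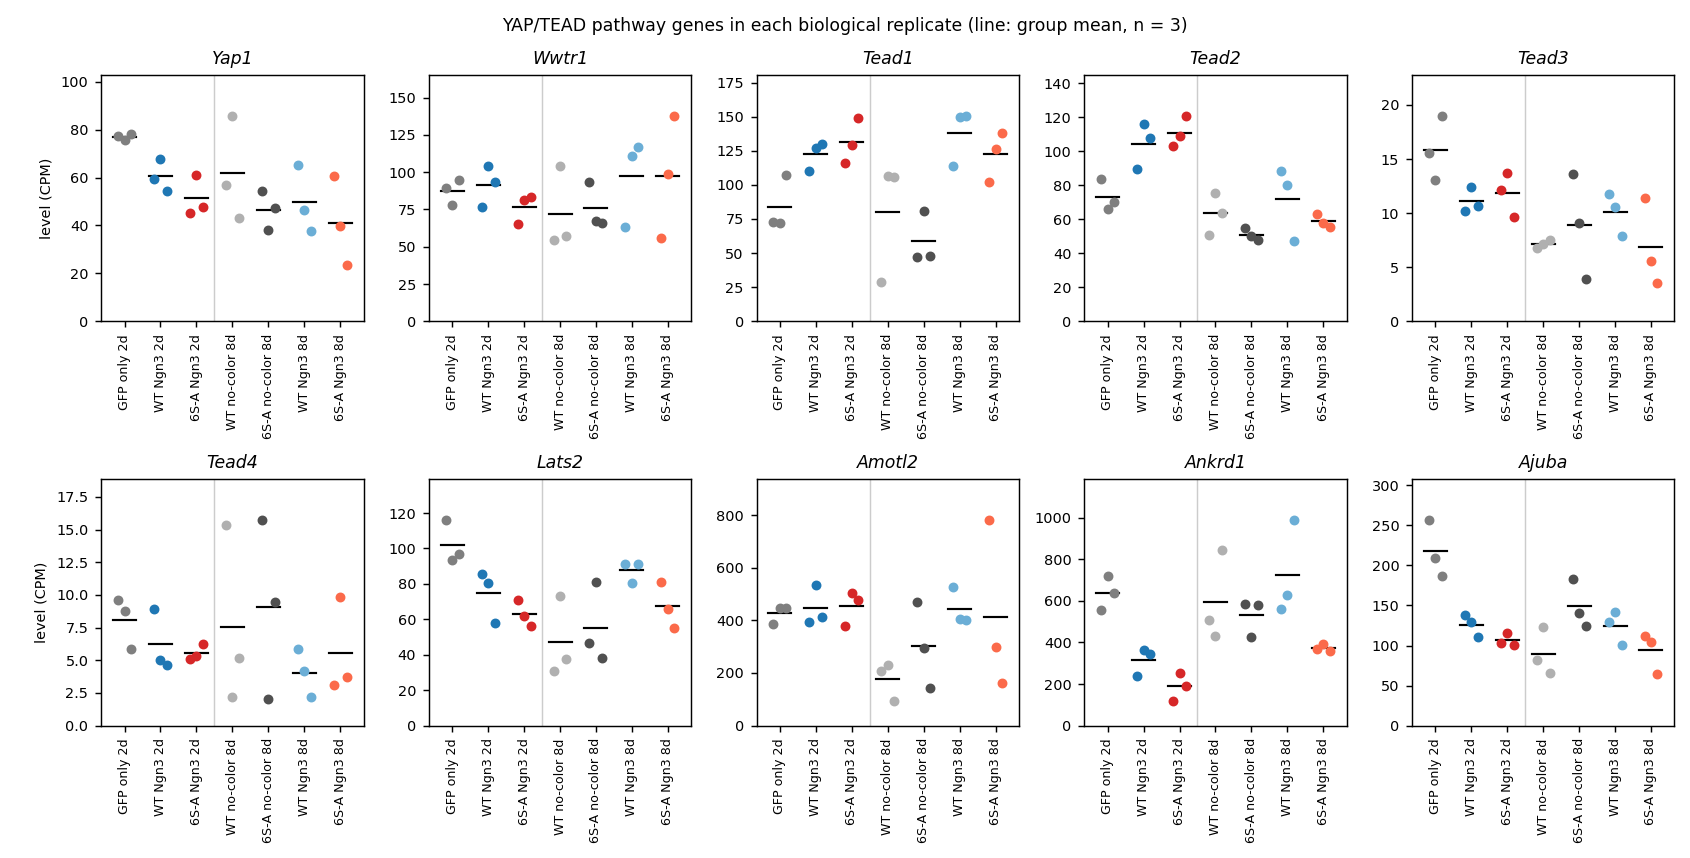
Levels of the 10 genes in TMM-normalised CPM (vertical axes, linear, each from 0) in each biological replicate of the 7 groups, with a line at each group mean (n = 3) and a grey line between the 2 day groups on the left and the 8 day groups on the right. Ankrd1 and Ajuba sit below all GFP only replicates in both Ngn3 groups at 2 days, Tead1 and Tead2 sit above them, and the 8 day replicates are more scattered.

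TEAD proteins recognise the hexamer GGAATG, and the sequences before RefSeq transcript starts of the genes were searched for it. The 250 bases before each start (GRCm38.p6) were read on both strands, in 12 windows of the 8 genes that had any in the set used. RefSeq and GENCODE starts differ. By the GENCODE positions the windows of Ankrd1, Amotl2 and Lats2 and a window of Tead3 lie inside the gene. Sequence before the GENCODE start of Ankrd1, Amotl2 and Lats2 was therefore not searched. The hexamer was present for 6 of the 8 (Yap1, Wwtr1, Tead3, Amotl2, Ankrd1 and Ajuba) and not for Tead2 and Lats2, and 14.4% of 27025 genes had it in a window of this length. The E-box CAGATG, a site type bound by Ngn3 and related factors, was in no window of the 8 genes, against 16.3% of genes, and the E-box CAGCTG was in that of Ajuba alone, against 14.7%. A match in these letters is a description and not a binding site, and no binding was measured here. The sequences of the most strongly reduced genes are shown, with Yap1 itself. Ankrd1 has 2 copies of the hexamer on its own strand, the first letters of which lie 210 and 123 bases before the start, and 30 bases around each are given with the hexamer in capitals (minus strand, chr19:36120037-36120066 and chr19:36119950-36119979).
Ankrd1, distal: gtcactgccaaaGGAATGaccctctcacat
Ankrd1, proximal: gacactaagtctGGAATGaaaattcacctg

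Ajuba has 2 copies in the reverse orientation, which read CATTCC on the strand of the gene, 186 and 164 bases before the start. The 250 bases before its start (minus strand, chr14:54577662-54577911) are given with the hexamers in capitals.
Ajuba: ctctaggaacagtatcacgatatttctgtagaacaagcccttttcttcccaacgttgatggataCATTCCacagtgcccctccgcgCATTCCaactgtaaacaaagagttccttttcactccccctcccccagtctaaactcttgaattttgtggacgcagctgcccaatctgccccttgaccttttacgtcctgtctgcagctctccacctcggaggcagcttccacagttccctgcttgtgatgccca

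Yap1 has 1 copy, 141 bases before the start, in a window (minus strand, chr9:8004597-8004846) rich in G and C.
Yap1: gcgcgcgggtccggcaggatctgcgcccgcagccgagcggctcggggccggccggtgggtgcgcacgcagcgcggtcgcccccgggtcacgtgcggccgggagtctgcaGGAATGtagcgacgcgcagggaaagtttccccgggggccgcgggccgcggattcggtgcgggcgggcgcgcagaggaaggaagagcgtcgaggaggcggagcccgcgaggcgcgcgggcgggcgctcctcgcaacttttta

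The first comparison asks what WT Ngn3 does to these genes in 2 days. The test was edgeR quasi-likelihood without a replicate block, with a Benjamini-Hochberg adjusted p under 0.05. Against GFP only, 4 of the 10 genes passed it, 2 upward and 2 downward. This stands beside 11.8% of the 23844 genes tested, 6.56% upward and 5.23% downward. Ankrd1 and Ajuba fell, Tead1 and Tead2 rose, and Yap1, Tead3 and Lats2 lay wholly below GFP only without passing. With 6S-A Ngn3 6 of the 10 genes passed, beside 18.1% of all genes (9.43% upward and 8.62% downward): Ankrd1, Ajuba, Yap1 and Lats2 fell, and Tead1 and Tead2 rose. Both comparisons use the same GFP only replicates, so they are not independent of each other. The 10 genes were chosen with earlier results of these data known, so the counts are descriptions. In sorted pools, fewer cells of a type and less RNA per cell cannot be told apart.

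Ankrd1, a nuclear ankyrin-repeat protein and one of the most used readouts of YAP activity, showed the lowest values relative to GFP only. Its level was 554, 721 and 639 CPM in the 3 GFP only replicates, 238, 365 and 342 with WT Ngn3, and 120.4, 255 and 189 with 6S-A Ngn3. Every Ngn3 replicate was below every GFP only replicate. The log2 fold change was −1.01 ± 0.24 (SE; adjusted p = 0.0169, edgeR) with WT Ngn3 and −1.77 ± 0.24 (adjusted p = 3.34e-04) with 6S-A Ngn3, that is, 0.497 and 0.294 of the GFP only level. The WT call was lost without GFP only replicate 2 (adjusted p = 0.0668), without GFP only replicate 3 (0.0611), without WT Ngn3 replicate 1 (0.0548) and with no filter on low genes (0.109), while the fold change stayed between −1.12 and −0.84 in all 15 alternatives. The 6S-A call held in all 15.

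Ajuba (ENSMUSG00000022178, chromosome 14, 54567472 to 54577558, minus strand), which keeps LATS kinases in check at cell junctions, was at 257, 209 and 187 CPM in GFP only. It was at 138, 129.7 and 110.5 with WT Ngn3, and at 104, 116 and 100.3 with 6S-A Ngn3. No Ngn3 replicate reached the lowest control. Ajuba fell by 0.78 ± 0.13 on the log2 scale with WT Ngn3 (adjusted p = 0.00123, edgeR) and by 1.03 ± 0.13 with 6S-A Ngn3 (adjusted p = 7.83e-05), and both calls held in all 15 alternatives.

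Of the 4 TEAD genes, Tead1 and Tead2 rose. Tead1 (ENSMUSG00000055320, chromosome 7, 112679318 to 112906807) was at 73.0, 71.7 and 107 CPM in GFP only, 110.3, 127 and 130.2 with WT Ngn3, and 116, 129 and 149 with 6S-A Ngn3. GFP only replicate 3 came close to the lowest WT replicate, though the groups did not overlap. Tead1 rose by 0.55 ± 0.16 (adjusted p = 0.0404, edgeR) and 0.65 ± 0.16 (adjusted p = 0.0121). The WT call was lost without GFP only replicate 1 (adjusted p = 0.146) or 2 (0.168) without WT Ngn3 replicate 2 (0.114) or 3 (0.108), and with the first technical repeat only (a rise of 0.37, 0.636). The 6S-A call was lost without GFP only replicate 1 (0.0536) or 2 (0.0619), without 6S-A Ngn3 replicate 3 (0.0556), and with the first technical repeat only (a rise of 0.34, 0.609).

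Tead2 (ENSMUSG00000030796, chromosome 7, 45215753 to 45233644), a TEAD best known from embryonic tissues, was at 83.6, 66.0 and 70.0 CPM in GFP only, 89.4, 116 and 108 with WT Ngn3, and 103, 109 and 121 with 6S-A Ngn3. Its groups did not overlap in either comparison. Tead2 rose by 0.52 ± 0.13 (adjusted p = 0.0180, edgeR) with WT Ngn3 and 0.60 ± 0.13 (adjusted p = 0.00502) with 6S-A Ngn3. The WT call was lost without GFP only replicate 2 (adjusted p = 0.0968) or 3 (0.0611) without WT Ngn3 replicate 2 (0.0883) or 3 (0.0505), and with the first technical repeat only (0.239). The 6S-A call was lost with the first technical repeat only (a rise of 0.35, adjusted p = 0.603).

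Tead3 and Tead4, which were low from the start, did not pass in either comparison. Tead3 was at 15.5, 13.05 and 19.0 CPM in GFP only and at 10.2 to 12.4 with WT Ngn3 (log2 fold change −0.51 ± 0.21, adjusted p = 0.154, edgeR). With 6S-A Ngn3 it was at 12.2, 13.7 and 9.64 CPM, which overlapped GFP only (−0.43, adjusted p = 0.198). Tead4 was at 9.62, 8.74 and 5.87 CPM in GFP only and at 8.96, 5.02 and 4.63 with WT Ngn3 and 5.13, 5.31 and 6.25 with 6S-A Ngn3, and its groups overlapped in both comparisons.

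Of the coactivator genes, Yap1 passed with 6S-A Ngn3 and Wwtr1 with neither form, and the difference between the genes was not tested. Yap1 was at 77.3, 75.6 and 78.1 CPM in GFP only, the narrowest spread of the 10 genes in that group, at 59.2, 67.7 and 54.6 with WT Ngn3, and at 45.1, 61.0 and 47.9 with 6S-A Ngn3. Both Ngn3 groups lay below GFP only without overlap. The difference with WT Ngn3 was −0.34 ± 0.13 on the log2 scale and did not pass (adjusted p = 0.128, edgeR), and it passed when the replicate number was entered as a block (−0.35, adjusted p = 0.0286). With 6S-A Ngn3 Yap1 fell by 0.59 ± 0.13 (adjusted p = 0.00612), a call lost with the first technical repeat only (−0.47, adjusted p = 0.481). Wwtr1, the gene for TAZ, was at 89.3, 77.7 and 94.7 CPM in GFP only, 76.7, 104 and 93.7 with WT Ngn3, and 65.4, 81.3 and 83.4 with 6S-A Ngn3, with overlap in both comparisons. Its log2 fold changes of 0.08 and −0.19 did not pass (adjusted p = 0.836 and 0.446), and their 95% intervals ran from −0.23 to 0.38 and from −0.49 to 0.12.

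Of the 2 remaining regulators, the kinase gene Lats2 (ENSMUSG00000021959, chromosome 14, 57689662 to 57758388, minus strand) was at 116, 93.5 and 96.8 CPM in GFP only, 85.3, 80.6 and 58.1 with WT Ngn3, and 70.7, 62.0 and 56.0 with 6S-A Ngn3. All Ngn3 replicates were below all GFP only replicates. Lats2 fell by 0.70 ± 0.15 on the log2 scale with 6S-A Ngn3 (adjusted p = 0.00505, edgeR), a call lost with the first technical repeat only (−0.71, adjusted p = 0.126). The difference of −0.44 ± 0.15 with WT Ngn3 did not pass (adjusted p = 0.0833), but passed with the replicate block (−0.45, adjusted p = 0.00505), with no filter on low genes (0.0226) and without WT Ngn3 replicate 1 (0.0493). Amotl2 was at 387, 448 and 449 CPM in GFP only, 395, 534 and 413 with WT Ngn3, and 379.9, 505 and 479 with 6S-A Ngn3. These groups overlapped, and the log2 fold changes of 0.07 and 0.08 (95% intervals −0.23 to 0.37 and −0.22 to 0.39) did not pass. Among the genes taken as YAP and TEAD targets, Ankrd1 passed downward with both forms, Lats2 with 6S-A Ngn3, and Amotl2 with neither. The differences between these genes were not tested.

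The groups did not overlap for 7 of the 10 genes with WT Ngn3, where 13.3% of all genes lay wholly above and 13% wholly below GFP only, and for 6 of the 10 with 6S-A Ngn3, where these shares were 16.7% and 16.2%. The median log2 fold change over the 10 genes was −0.35 and −0.48, against 0.015 and 0.018 over all genes tested. With the replicate block 6 genes passed with WT Ngn3, as Yap1 and Lats2 were added, beside 18% of all genes, and 6 with 6S-A Ngn3, beside 24.8%.

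**Figure D2:**
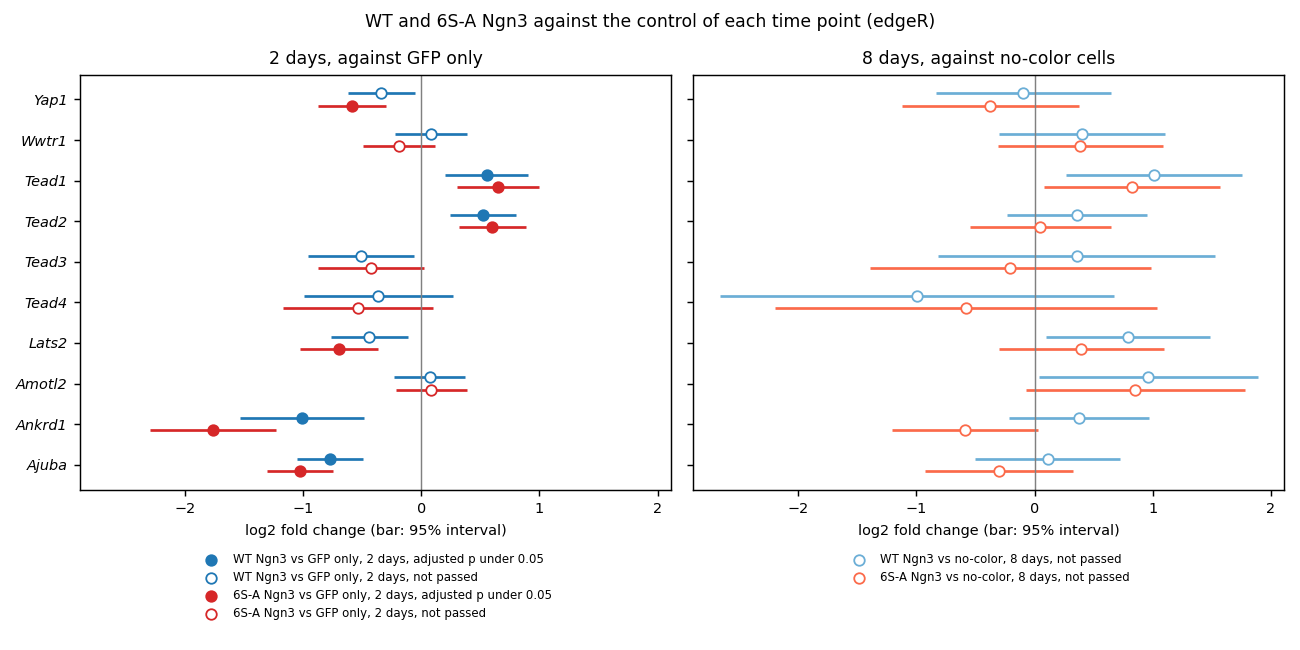
Log2 fold changes of the 10 genes (horizontal axes) with 95% intervals as bars, at 2 days against GFP only on the left and at 8 days against the mean of both no-color groups on the right, for WT Ngn3 in blue and 6S-A Ngn3 in red. Filled points passed an adjusted p of 0.05 (edgeR), which 4 genes did with WT and 6 with 6S-A Ngn3 at 2 days and none did at 8 days.

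Whether the 2 Ngn3 forms differ in their effect on these genes was tested by setting 6S-A Ngn3 directly against WT Ngn3 at 2 days. Without the replicate block none of the 10 genes passed, beside 0.0126% of all genes tested, and DESeq2 called none of the 10 either. At an unadjusted p under 0.05 the sole member was Ankrd1, where 5.79% of all genes passed. Ankrd1 was lower with 6S-A than with WT Ngn3 in each pair of same-numbered replicates, by 0.98, 0.52 and 0.86 on the log2 scale, although replicate 2 of 6S-A Ngn3 (255 CPM) exceeded replicate 1 of WT Ngn3 (238 CPM). The fitted difference was −0.76 (95% interval −1.28 to −0.24, unadjusted p = 0.00843, adjusted p = 0.585, edgeR). Blocked on replicate number, the difference was −0.79 ± 0.11 and passed (adjusted p = 0.00652), beside 0.617% of all genes. It also passed with a single pool per replicate (−1.44, adjusted p = 3.14e-05). Over the 15 alternatives the adjusted p of Ankrd1 ran from 3.14e-05 to 1, and 13 did not pass. Yap1, Wwtr1, Lats2 and Ajuba were also lower with 6S-A Ngn3 in all 3 pairs, which makes 5 of the 10 genes with Ankrd1, beside 14.9% of all genes tested. For the other 9 genes the fitted difference lay between −0.27 (Wwtr1) and 0.09 (Tead1), with adjusted p of 0.930 or more. The 95% intervals of Yap1 (−0.53 to 0.04), Lats2 (−0.59 to 0.07) and Ajuba (−0.53 to 0.03) reach further below 0 than above it, and a miss of the threshold does not show that the forms act alike on them. The median over the 10 genes was −0.21, against −0.0012 over all genes. Summed ductal markers were at 9416 to 10255 CPM with 6S-A against 11611 to 12164 with WT Ngn3, and summed proliferation genes at 180 to 299 against 261 to 404 CPM. None of the 12 ductal markers and none of the 14 proliferation genes passed between the forms (edgeR), where 6 and 2 had an unadjusted p under 0.05, and their part in the Ankrd1 difference was not tested.

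**Figure D3:**
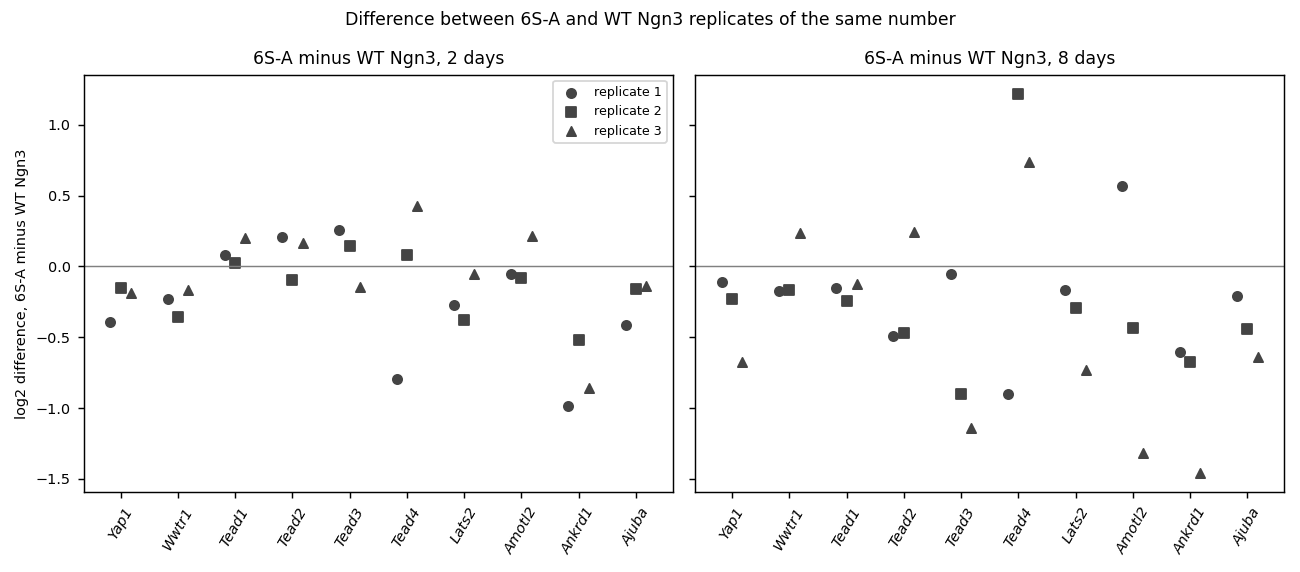
Log2 difference between the 6S-A and WT Ngn3 replicates of the same number (vertical axis; each point is 1 pair, marked by replicate number) for the 10 genes at 2 days on the left and 8 days on the right. Ankrd1 is below 0 in all 3 pairs at both times, by 0.52 to 0.98 at 2 days and 0.60 to 1.46 at 8 days. Yap1, Lats2 and Ajuba are also below 0 in all 3 pairs at both times. At 2 days Tead1 is above 0 in all 3 pairs, and Tead2 and Tead3 lie on both sides of 0. Of all genes, 14.9% at 2 days and 9.62% at 8 days were lower with 6S-A Ngn3 in all 3 pairs.

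The single pools of 50 cells showed how evenly these changes ran through the cultures at 2 days, with 18 pools per group. Ankrd1 ran from 409.6 to 928 CPM in GFP only pools (median 663), from 197 to 606 with WT Ngn3 (median 317) and from 86.0 to 344 with 6S-A Ngn3 (median 155). All 6S-A pools were therefore below the lowest GFP only pool, while WT pools overlapped both other groups. Ajuba pools ran from 133 to 269 CPM (median 220.5), 66.3 to 160.5 (median 129) and 59.1 to 157 (median 111). Yap1 pools overlapped widely, at 56.0 to 94.3 CPM (median 78.1), 39.1 to 99.0 (median 59.96) and 35.6 to 71.0 (median 52.9). Tead1 pools overlapped too, at 53.4 to 161 CPM (median 79.5), 89.4 to 205 (median 134) and 86.3 to 229 (median 129). In GFP only replicate 3 Tead1 was at 117 to 161 CPM in technical repeats 1 to 4, which held 0.203% to 0.236% spike-in reads. It was at 74.2 and 79.7 CPM in repeats 5 and 6, which held 0.0753% and 0.0736%. Repeats 5 and 6 were also lowest in replicate 3 of both Ngn3 groups. The part of this split was not tested. Pools of a replicate share its culture and are not independent samples, so no test was run on them. The spread between pools of a replicate (median SD of log2 CPM) was as large as that between replicate means for Ankrd1 (0.38 and 0.37) and Ajuba (0.19 and 0.19), and larger for Tead4 (0.54 against 0.26).

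Pools also differed in their Neurog3 level, from 29.9 to 376 CPM with WT Ngn3 and from 43.1 to 247 with 6S-A Ngn3. Within replicates, the correlation of log2 Ankrd1 with log2 Neurog3 over the 18 pools was −0.59 with WT and −0.31 with 6S-A Ngn3. It was below 0 with both forms for Yap1 (−0.35 and −0.32) and Tead1 (−0.41 and −0.41) too. It was above 0 with both for Tead3 (0.62 and 0.12) and Lats2 (0.22 and 0.04), and for Ajuba the signs were opposite (−0.17 and 0.49). Over the 10 genes it ran from −0.59 (Ankrd1) to 0.62 (Tead3) with WT Ngn3 and from −0.83 (Wwtr1) to 0.49 (Ajuba) with 6S-A Ngn3. These values are descriptions over pools that share 3 cultures, library preparation and differing depth.

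**Figure D4:**
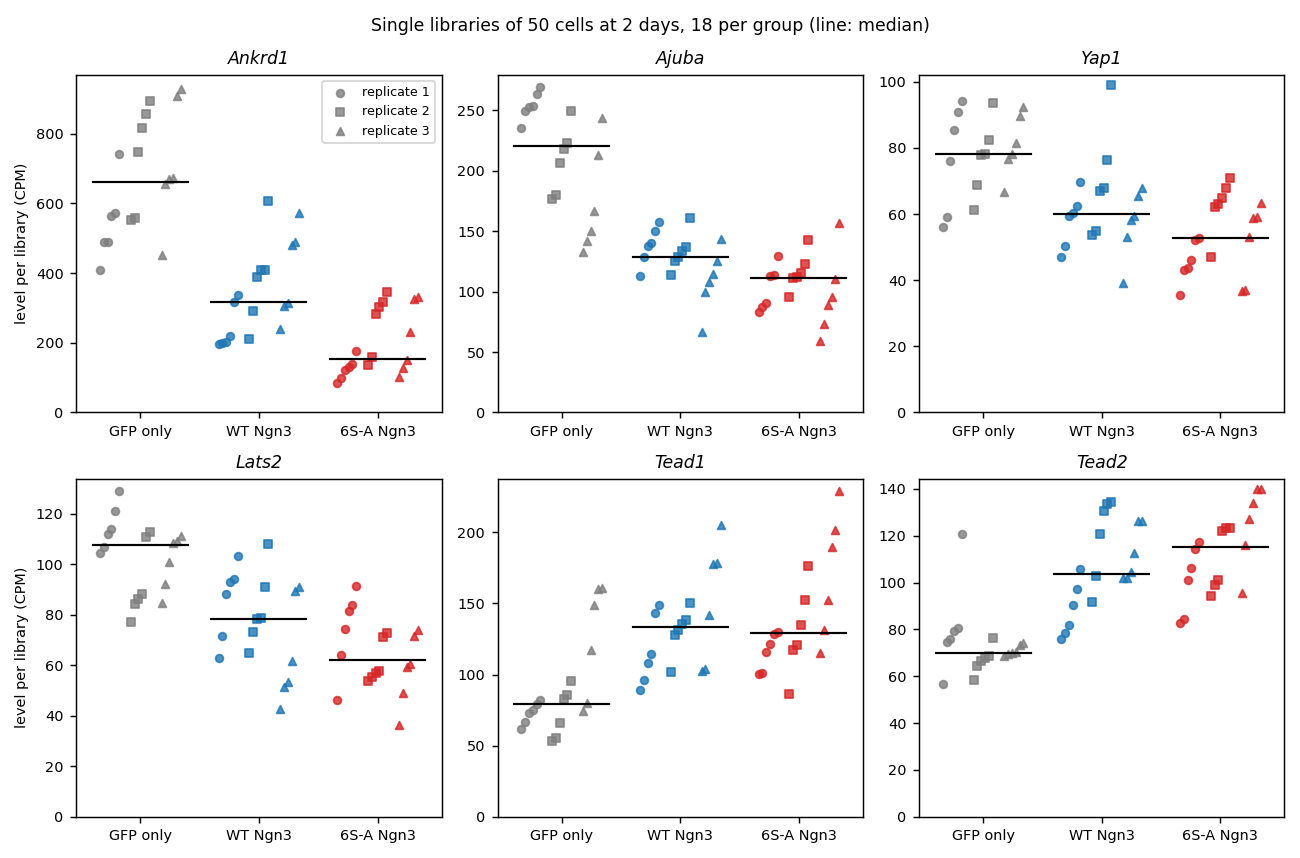
CPM (vertical axes, linear, from 0) of 6 of the genes in each single library of 50 cells at 2 days, 18 per group, with the biological replicate shown by the marker and a line at the group median. The Ankrd1 medians step down from 663 in GFP only through 317 with WT Ngn3 to 155 with 6S-A Ngn3, while the Yap1 pools of the 3 groups overlap.

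At 8 days the question was which of these changes were seen later, with no-color cells as the control. None of the 10 genes passed with WT Ngn3, beside 0.914% of all genes, or with 6S-A Ngn3, beside 1.71%, and DESeq2 called none in either. At an unadjusted p under 0.05, Tead1, Lats2 and Amotl2 were higher with WT Ngn3 (10.5% of all genes passed so) and Tead1 was higher with 6S-A Ngn3 (12.1%). Both comparisons share the 6 no-color replicates. The kind of control and the time differ together from the 2 day comparisons and cannot be told apart.

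Tead1, which rose at 2 days, was at 114, 149 and 151 CPM in WT Ngn3 cells, 102, 126 and 138 in 6S-A Ngn3 cells, 29.2, 106 and 106 in WT no-color cells and 47.0, 80.8 and 48.2 in 6S-A no-color cells. WT Ngn3 replicates lay above all 6 no-color replicates, as 3.02% of all genes did, whereas 6S-A replicate 1 fell below 2 of them. The differences were 1.01 ± 0.35 (adjusted p = 0.264, edgeR) and 0.82 ± 0.35 (adjusted p = 0.350), and with the replicate block that of WT Ngn3 passed (1.10, adjusted p = 0.0434), beside 2.4% of all genes, while no member passed with 6S-A Ngn3, beside 3.57%. Amotl2, which did not pass at 2 days, was at 527, 405 and 402 CPM with WT Ngn3, 208, 231 and 91.7 in WT no-color cells and 468, 296 and 143 in 6S-A no-color cells. The highest no-color replicate exceeded 2 of the WT Ngn3 replicates. Its difference of 0.96 ± 0.44 from both no-color groups did not pass (adjusted p = 0.451, edgeR), but did with the block (1.12, adjusted p = 0.0450). In 6S-A Ngn3 cells Amotl2 was at 782, 300.5 and 162 CPM, a spread in which replicate 1 stood far above the others. Lats2 was at 91.2, 80.7 and 91.4 CPM in WT Ngn3 cells, 81.2, 65.9 and 55.0 in 6S-A Ngn3 cells and 30.6 to 80.8 over the no-color replicates. Its WT replicates overlapped the highest no-color replicate by a small margin, and the differences of 0.79 ± 0.33 and 0.40 ± 0.33 did not pass (adjusted p = 0.391 and 0.729, edgeR).

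Ankrd1 in WT Ngn3 cells was not below the no-color cells at 8 days. It was at 561, 626 and 989 CPM there, 510, 430.2 and 845 in WT no-color cells, 370, 392 and 359 with 6S-A Ngn3 and 586, 424 and 581 in 6S-A no-color cells. WT Ngn3 replicates overlapped the no-color cells, and all 6S-A replicates were below them, as 2.23% of all genes were. The differences from both no-color groups were 0.38 ± 0.28 (adjusted p = 0.692, edgeR) and −0.59 ± 0.29 (adjusted p = 0.441). Directly compared, 6S-A Ngn3 lay below WT Ngn3 without overlap, by 0.97 on the log2 scale (95% interval −1.67 to −0.27, unadjusted p = 0.00947, adjusted p = 1, edgeR). Over 15 alternatives this difference ran from −1.14 to −0.63, and it passed in none. In that comparison none of the 19696 genes tested passed, 2.11% had an unadjusted p under 0.05, 2.36% lay wholly below WT Ngn3 and DESeq2 called none of the 10 genes. The pairs of same-numbered replicates differed by −0.60, −0.67 and −1.46, and Yap1, Tead1, Tead3, Lats2 and Ajuba were below 0 in all 3 pairs too, which makes 6 of the 10 genes, beside 9.62% of all genes.

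Ajuba at 8 days was at 129, 142 and 101 CPM in WT Ngn3 cells, 112, 105 and 64.8 in 6S-A Ngn3 cells, 81.9, 123 and 65.1 in WT no-color cells and 183, 141 and 124 in 6S-A no-color cells. The no-color groups themselves lay apart, by 0.74 ± 0.34 (unadjusted p = 0.0440, adjusted p = 0.592, edgeR), where 7.55% of all genes lay wholly higher in 6S-A no-color cells and 8.37% had an unadjusted p under 0.05. Each Ngn3 replicate was set against the no-color replicate labelled with the same number and Ngn3 form, called its own here. Ajuba was higher in all 3 WT replicates (by 0.66, 0.21 and 0.63) and lower in all 3 6S-A replicates (by 0.71, 0.43 and 0.93). Ankrd1 split in the same way, at 0.14, 0.54 and 0.23 with WT Ngn3 and −0.66, −0.11 and −0.69 with 6S-A Ngn3. How many of all genes split so was not counted. A contrast added after these values were seen tested the difference between the forms, each against its own no-color cells. It was −1.15 ± 0.48 for Ajuba (unadjusted p = 0.0281, adjusted p = 1, edgeR) and −0.82 ± 0.47 for Ankrd1 (unadjusted p = 0.0958), and none of the 10 genes passed, as none of all genes did, with 3.28% of all genes at an unadjusted p under 0.05 and no member called by DESeq2.

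Yap1 at 8 days was at 65.2, 46.4 and 37.6 CPM in WT Ngn3 cells, 60.5, 39.6 and 23.5 in 6S-A Ngn3 cells, 56.9, 85.8 and 43.2 in WT no-color cells and 54.2, 37.9 and 47.1 in 6S-A no-color cells. All groups overlapped, and the differences of −0.09 ± 0.35 and −0.38 ± 0.35 did not pass (adjusted p = 0.964 and 0.772, edgeR). Wwtr1 (0.40 and 0.39), Tead2 (0.36 and 0.05) and Tead3 (0.36 and −0.20) also overlapped the no-color cells with both forms and did not pass. Tead4 rested on as few as 9 reads in a replicate at 8 days, and its 95% interval with WT Ngn3 ran from −2.66 to 0.67. At 8 days summed proliferation genes were at 224 to 274 CPM with WT Ngn3, 116 to 295 with 6S-A Ngn3 and 255 to 940.2 over both no-color groups, with overlap. No proliferation gene passed there, while 1 and 2 of the 12 ductal markers passed downward, beside 0.914% and 1.71% of all genes in either direction. Summed endocrine markers lay far apart between replicates, at 42.5 to 1790.4 CPM with WT Ngn3 and 173 to 2105 with 6S-A Ngn3, against at most 7.53 in no-color cells, and 6 and 7 of the 10 passed upward. The part of these markers in the 8 day values was not tested.

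The change between time points was tested in a joint fit of 19589 genes. For none of the 10 genes did the effect of WT Ngn3, the effect of 6S-A Ngn3, or the difference between the forms change with an adjusted p under 0.05, beside 0, 0.0102% and 0% of all genes, and DESeq2 called none of the 10. At an unadjusted p under 0.05, where 5.23%, 5.64% and 2.27% of all genes passed, Ankrd1, Lats2 and Ajuba appeared for each form and no member for the difference between them. Ankrd1 had the largest shift, 1.39 ± 0.39 with WT Ngn3 (unadjusted p = 0.00174, adjusted p = 0.567, edgeR) and 1.17 ± 0.39 with 6S-A Ngn3 (adjusted p = 0.606), away from the low values of 2 days. Lats2 shifted by 1.23 and 1.09 and Ajuba by 0.88 and 0.72. Both forms were set against the same GFP only and no-color replicates. The difference in Ankrd1 between 6S-A and WT Ngn3 was −0.76 at 2 days and −0.97 at 8 days, and the change between them was −0.21 (95% interval −1.08 to 0.65).

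The wider pathway was read from 2 lists and a small family, also chosen with earlier results of these data known. The first holds 19 other genes used as a signature of YAP and TAZ activity. With WT Ngn3 at 2 days 2 of the 19 rose and 6 fell, beside 6.56% and 5.23% of all genes, and with 6S-A Ngn3 2 rose and 9 fell, beside 9.43% and 8.62%. The median log2 fold change was −0.54 and −0.75, against 0.015 and 0.018 over all genes. With the replicate block these counts were 4 and 11 with WT Ngn3, where 18% of all genes passed in either direction, and 3 and 11 with 6S-A Ngn3, where 24.8% did. Of those that fell, F3, the gene for tissue factor, was at 102, 92.6 and 136 CPM in GFP only, 33.3, 35.1 and 39.5 with WT Ngn3 and 19.0, 23.8 and 29.3 with 6S-A Ngn3 (log2 fold changes −1.61 and −2.20, adjusted p = 4.45e-05 and 1.95e-06, edgeR). Nuak2, a kinase that acts on the actin cytoskeleton, was at 181 to 214 CPM, 56.1 to 72.8 and 36.2 to 62.8 (−1.57 and −2.12). Ccn2, a secreted matrix protein long used as a readout of YAP, was at 543 to 740 CPM, 259 to 385 and 127 to 270 (−1.09 and −1.75). Tgfb2, a TGF-β ligand, was at 18.9 to 27.5 CPM, 5.12 to 11.6 and 3.70 to 6.41 (−1.46 and −2.17). Myof and Crim1 also fell with both forms, and Gadd45b, Ccdc80 and Dock5 with 6S-A Ngn3.

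Nt5e and Arhgef17 were the genes of the signature that rose. Nt5e, which encodes the ecto-enzyme CD73, was at 1.02, 1.39 and 0.278 CPM in GFP only, 14.3, 15.1 and 8.48 with WT Ngn3 and 14.6, 11.6 and 12.2 with 6S-A Ngn3 (3.79 and 3.81). Arhgef17 rose by 0.70 and 0.77. No gene of the signature passed between 6S-A and WT Ngn3 at 2 days, and with the replicate block F3 (−0.61, adjusted p = 0.0242) and Gadd45b (−0.45, adjusted p = 0.0366) passed, beside 0.617% of all genes. At 8 days the sole gene of the signature to pass was Axl, a receptor tyrosine kinase, which was higher with both forms (2.18 and 2.30, adjusted p = 0.0302 and 0.0118, edgeR), which makes 1 of 19 with each, beside 0.914% and 1.71% of all genes. It was at 208, 176 and 70.4 CPM in WT Ngn3 cells, 278, 109 and 110 in 6S-A Ngn3 cells and 12.7 to 54.6 in the no-color cells. With the replicate block Igfbp3 also passed with WT Ngn3 at 8 days (1.46), beside 2.4% of all genes.

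**Figure D5:**
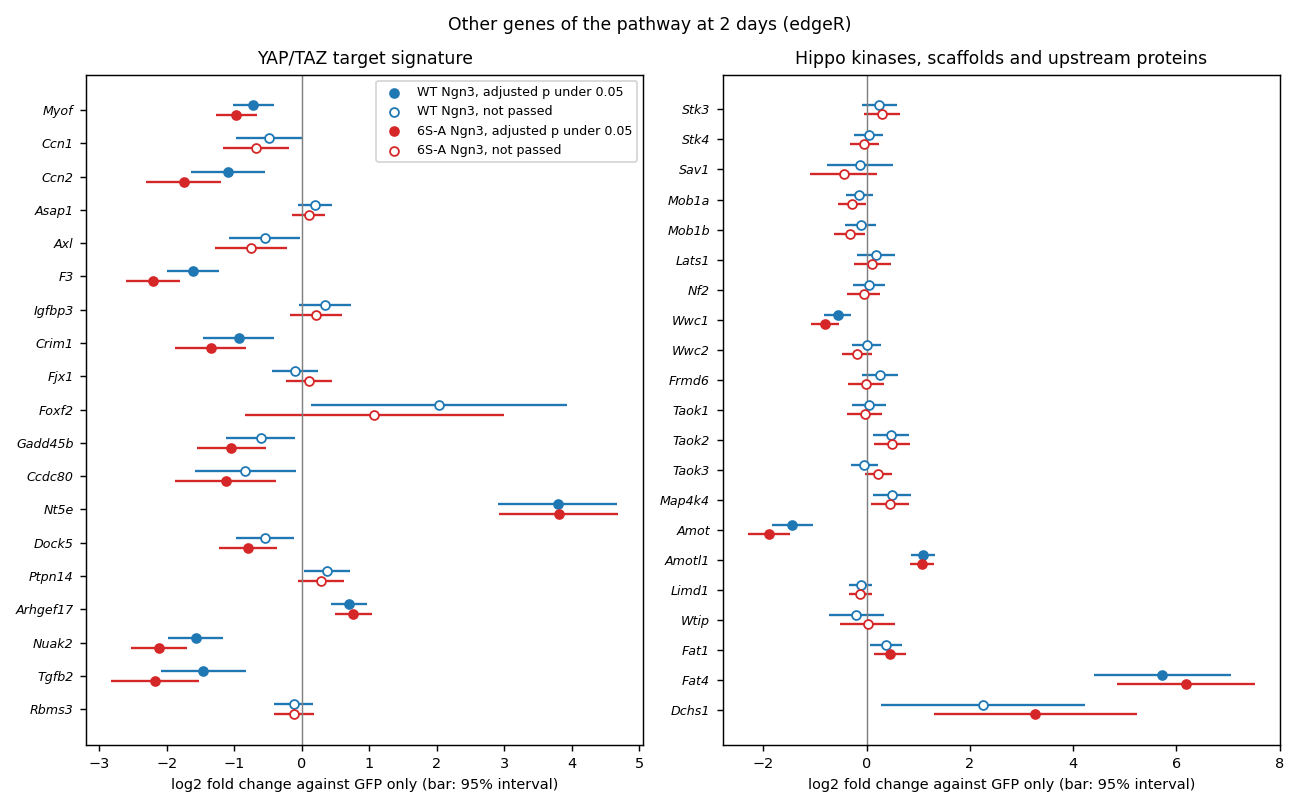
Log2 fold changes against GFP only at 2 days (horizontal axes, 95% intervals as bars) for the 19 signature genes on the left and 21 Hippo pathway genes on the right, with WT Ngn3 in blue and 6S-A Ngn3 in red and filled points for an adjusted p under 0.05. Most signature genes that passed lie to the left of 0, with Nt5e and Arhgef17 to the right, while the core kinase genes Stk3, Stk4 and Lats1 stay near 0.

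The second list holds 21 genes for Hippo kinases, their scaffolds and upstream proteins. With WT Ngn3 2 rose and 2 fell, beside 6.56% and 5.23% of all genes. With 6S-A Ngn3 4 rose and 2 fell, beside 9.43% and 8.62%. The medians were 0.05 and −0.01. Core kinase and adaptor genes (Stk3, Stk4, Sav1, Mob1a, Mob1b and Lats1) did not pass with either form. Among the angiomotins, which bind YAP directly, Amot fell (63.4, 61.3 and 57.8 CPM in GFP only, 19.5 to 26.7 with WT Ngn3 and 11.5 to 19.3 with 6S-A Ngn3; −1.44 and −1.89) whereas Amotl1 rose (165 to 189 CPM, 348 to 401 and 362 to 398; 1.08 and 1.07). Together with Amotl2, the 3 angiomotin genes thus showed a fall, a rise and no call. Wwc1, which encodes the scaffold KIBRA, fell by 0.56 and 0.81. Fat4, an atypical cadherin, was at 0, 0.654 and 0.324 CPM in GFP only, 14.7, 12.9 and 23.9 with WT Ngn3 and 26.8, 17.2 and 27.2 with 6S-A Ngn3 (5.73 and 6.18). Its ligand gene Dchs1 passed with 6S-A Ngn3 (adjusted p = 0.0224, edgeR), at 0.641, 0.676 and 2.45 CPM against at most 0.278 in GFP only, and at 0.396 to 0.837 with WT Ngn3. Fat1 rose by 0.45 with 6S-A Ngn3. Between the forms none of the 21 passed (lowest adjusted p = 0.816, edgeR), and 2 had an unadjusted p under 0.05. With the replicate block 6 rose and 2 fell with WT Ngn3, beside 18% of all genes in either direction, and 6 rose and 4 fell with 6S-A Ngn3, beside 24.8%. At 8 days Amotl1 passed with WT Ngn3 (1.12, adjusted p = 0.0365) and Fat4 with 6S-A Ngn3 (adjusted p = 0.0254), at 2.30 to 9.60 CPM against at most 0.979 in no-color cells, which makes 1 of 20 genes tested with each form, beside 0.914% and 1.71% of all genes. With the block 3 genes rose there with WT Ngn3, beside 2.4% of all genes, and 3 rose and 1 fell with 6S-A Ngn3, beside 3.57%.

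Of the 4 vestigial-like genes, cofactors that compete with YAP for TEAD proteins, 2 were expressed enough to be tested. Vgll3 was at 7.68, 8.12 and 5.55 CPM in GFP only, 2.42, 1.78 and 3.79 with WT Ngn3 and 0.549, 2.19 and 1.70 with 6S-A Ngn3, and fell by 1.40 (adjusted p = 0.0480, edgeR) and 2.27 (adjusted p = 0.00239). Vgll4 did not pass, except downward with 6S-A Ngn3 under the replicate block, at both times.

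Across the 21 biological replicates of all groups, the genes whose log2 CPM followed Yap1 most closely, among 19588 genes compared, were Slc28a3 (Pearson r = 0.85), Gcnt1 (0.84), Sh3rf1 (0.84), Ppp1r12b (0.83) and Tbc1d1 (0.83). No member of the list was among these 5. Within the list the highest correlations were those of Tead3 with Amotl2 (0.73), Ajuba (0.67) and Yap1 (0.66) and of Yap1 with Ajuba (0.65), and the lowest were those of Tead2 with Ankrd1 (−0.62) and of Tead1 with Tead4 (−0.61). Yap1 and Wwtr1 stood at −0.21. These values describe replicates that share groups and time points.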

How the data were processed

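Single-end 50 bp Smart-seq2 libraries of sorted pools were, per the labels, aligned by the authors with GSNAP to mm10 and assigned to genes of Ensembl release 81 with HTSeq (0.5.3p3); the deposited table holds unnormalized read counts of 46078 genes and 92 spike-ins. Of the reads, 22.5% were listed as not aligned, 14.4% as in no gene and 8.06% as ambiguous, and these lines and the spike-ins stayed out of library sizes and tests. The line for reads with several alignments is 0 throughout. No molecular identifiers were used, so reads from 1 molecule can count more than once.

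Libraries had to hold under 30% spike-in reads, over 1000000 reads and over 10000 genes; 1 of the 77 (849278 reads) failed. Technical repeats were summed into 21 replicates. For each time point, genes with a read in 5 or more retained libraries entered edgeR 4.0.16 in R 4.3.3 (TMM, robust quasi-likelihood, all groups of a time point together, adjusted over 23844 or 19696 genes, threshold 0.05). The test ran first on simulated counts. CPM were computed from the counts with TMM over all replicates, differences between single replicates with 0.1 CPM added, values of single pools on the log2 scale with 1 CPM added, and correlations over replicates with a prior count of 2. Alternatives were DESeq2 1.42.0, RLE and scran 1.30.0 scaling, other gene and library filters, the first technical repeat only, a replicate block, each form against its own no-color cells, passage 2 replicates only and each replicate left out.

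The labels give all groups the same replicate numbers. Same-numbered replicates deviated together from their group means. Over genes with a mean of at least 10 CPM, correlations were 0.119 to 0.556 at 2 days and 0.117 to 0.670 at 8 days. Over all genes tested they were 0.044 to 0.184 and 0.069 to 0.478. They were taken as paired in the same-numbered differences and in the replicate block. The main tests were run without the block and leave this pairing out. Between the forms at 2 days 0.0126% of all genes passed without the block and 0.617% with it.

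Genes named are all 10 members, up to 4 per direction of each other list and comparison with the largest fold change past the threshold, Neurog3, and the 5 genes closest to Yap1. Myof, Crim1, Gadd45b, Ccdc80, Dock5, Igfbp3, Vgll4, Cela1, Pecam1 and the core kinases were named after their values were seen. Members and lists were chosen with earlier results of these data known. Lists matched by symbol. The authors' lists of comparisons in their supplement were not used. Promoter windows came from a set built on RefSeq starts, and the set used held none for Tead1 and Tead4.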

Additional observations from a re-analysis of the deposited data

How the results depend on the processing

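In 9 of the 11 comparisons the count of genes passed was 0, which cannot fall, so a count that stayed at 0 says nothing about stability. With the first technical repeat only, which uses fewer reads, 2 passed against GFP only with WT and 2 with 6S-A Ngn3, and 1 between the forms at 2 days. With the replicate block 1 gene (Ankrd1) passed between the forms at 2 days and 2 (Tead1, Amotl2) with WT Ngn3 at 8 days, and the block changed no other count by over 1.5 times. Leaving out 1 replicate gave 1 to 4 genes with WT Ngn3 at 2 days (1 without GFP only replicate 2, and 2 without GFP only replicate 3 or WT Ngn3 replicate 2 or 3), 5 to 6 with 6S-A Ngn3, and 0 in all other comparisons.

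Signs turned only for differences that did not pass. With the first technical repeat only, the log2 difference at 2 days was −0.12 for Wwtr1, 0.22 for Tead3 and −0.11 for Amotl2 with WT Ngn3, and 0.0039 for Tead3 and −0.20 for Amotl2 with 6S-A Ngn3; at 8 days it was −0.015 for Tead2 with 6S-A Ngn3. Without library limits Yap1 with WT Ngn3 at 8 days was at 0.057, and with passage 2 replicates only Wwtr1 with 6S-A Ngn3 at −0.064. Leaving out 1 replicate gave −0.023 to 0.18 for Wwtr1 and −0.071 to 0.14 for Amotl2 with WT Ngn3 at 2 days. At 8 days it gave −0.37 to 0.075 for Yap1 and −0.0085 to 0.27 for Ajuba with WT Ngn3, and −0.057 to 0.13 for Tead2, −0.80 to 0.079 for Tead3 and −0.0047 to 1.21 for Amotl2 with 6S-A Ngn3. The cause was not tested. Depth was lowest at 8 days, where Tead4 had as few as 9 reads in a replicate, and its part in these values was not tested. The replicate block within each time point, chosen after seeing the data, added no call to the joint fit.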
